A study of Mus musculus with 6 samples.

Results

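The CXC chemokines described here are 7 genes, Cxcl1, Cxcl2, Cxcl9, Cxcl10, Cxcl12, Cxcl13, and Cxcl16, chosen by symbol from the 28208 genes that the count matrices of all 6 kidneys list. Each symbol was found in every matrix, and its counts were followed by kidney and by the class of cell that held them. Single cells came from 2 naive, 2 rejecting, and 2 tolerized mouse kidneys, with 1 library per kidney. Naive kidneys were B6 (C57BL/6) kidneys from mice aged 10 to 12 weeks that had not been transplanted. Rejecting kidneys were BALB/c kidneys from donors aged 6 to 7 weeks, placed in B6 recipients whose own kidneys had been removed, left without treatment, and taken on day 15. Tolerized kidneys were transplanted in the same way and taken on the same day, and their recipients had been infused, before and after surgery, with BALB/c splenocytes treated with ECDI, a chemical crosslinker that leaves cells dying. Donor strain, age, the software named in the matrix header, and the genes listed differed between naive and transplanted kidneys along with transplantation. The cell barcodes that libraries shared split the same way. The shares of all these in any difference cannot be told apart. In other day 15 grafts of this model, the paper's flow cytometry found nearly all CD11b-positive myeloid cells to come from the B6 recipient. The origin of the cells was not tested here. Nothing in the labels says more about separate animals than 1 kidney per sample, and p values measure only the spread between these kidneys (n = 2 per group).

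Chemokines of this family are small secreted proteins that guide leukocytes through G protein-coupled receptors. Cxcl9 and Cxcl10 are induced by interferon-gamma and bind Cxcr3 on activated T cells and NK cells, and both are known from rejecting allografts. Cxcl1 and Cxcl2 call neutrophils through Cxcr2, Cxcl12 holds leukocytes and progenitors near stroma and vessels through Cxcr4, Cxcl13 draws B cells through Cxcr5, and Cxcl16 is made as a membrane protein that binds Cxcr6.

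In GRCm38 with the GENCODE M21 annotation, 5 of the 7 genes lie on chromosome 5. Cxcl1 (ENSMUSG00000029380) spans chr5:90891241-90893115 and Cxcl2 (ENSMUSG00000058427) chr5:90903871-90905938, both on the plus strand. Cxcl9 (ENSMUSG00000029417) spans chr5:92321347-92328079 and Cxcl10 (ENSMUSG00000034855) chr5:92346638-92348889, both on the minus strand. Cxcl13 (ENSMUSG00000023078) spans chr5:95956951-95961068 on the plus strand. Cxcl12 (ENSMUSG00000061353) lies at chr6:117168535-117181367 on the plus strand and Cxcl16 (ENSMUSG00000018920) at chr11:70453983-70459984 on the minus strand. All are protein coding.

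Promoters are shown for the neighbors Cxcl9 and Cxcl10, because both rose in the transplanted kidneys with another order of source cells, and for Cxcl1 and Cxcl2, which differed in the cells that held them. The windows come from RefSeq on GRCm38.p6, end at the base before the RefSeq start, and were found for 6 of the 7 members, all but Cxcl16. They are read 5′ to 3′ on the strand of the gene. Capitals mark matches to 6 motifs searched on both strands: the interferon-stimulated response element GAAANNGAA, the gamma-activated site TTCNNNGAA, and the kB sites GGGAATTTC, GGGAAATTC, GGGACTTCC, and GGGACTTTC. The Cxcl9 and Cxcl10 windows are 250 bases long, at chr5:92328080-92328329 and chr5:92348890-92349139, on the minus strand. The Cxcl1 and Cxcl2 windows are the 150 bases nearest the start, at chr5:90891095-90891244 and chr5:90903749-90903898, on the plus strand.
Cxcl9: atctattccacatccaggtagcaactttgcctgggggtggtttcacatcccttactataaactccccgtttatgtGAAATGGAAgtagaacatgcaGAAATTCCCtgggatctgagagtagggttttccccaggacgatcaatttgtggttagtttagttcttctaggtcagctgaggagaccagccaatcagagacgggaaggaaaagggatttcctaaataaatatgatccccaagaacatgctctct
Cxcl10: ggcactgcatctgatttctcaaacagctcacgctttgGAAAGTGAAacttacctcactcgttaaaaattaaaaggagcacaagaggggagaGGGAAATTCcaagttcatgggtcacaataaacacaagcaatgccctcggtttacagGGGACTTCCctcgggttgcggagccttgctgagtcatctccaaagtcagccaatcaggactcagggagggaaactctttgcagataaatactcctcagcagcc
Cxcl1: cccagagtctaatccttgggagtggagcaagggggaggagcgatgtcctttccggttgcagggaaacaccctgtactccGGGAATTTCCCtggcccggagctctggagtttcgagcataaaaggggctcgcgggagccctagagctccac
Cxcl2: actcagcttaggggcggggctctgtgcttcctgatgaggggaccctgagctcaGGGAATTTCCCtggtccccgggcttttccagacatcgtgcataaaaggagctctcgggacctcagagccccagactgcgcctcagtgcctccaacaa

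The Cxcl10 window held GAAANNGAA at bases 213 to 205 before the start, GGGAAATTC at bases 159 to 151, and GGGACTTCC at bases 103 to 95. The Cxcl9 window held GAAANNGAA at bases 175 to 167 and GGGAATTTC, on the opposite strand, at bases 154 to 146. Of 32851 windows of 250 bases, 7.13% held GAAANNGAA, 0.216% GGGAAATTC, 0.685% GGGACTTCC, and 0.234% GGGAATTTC. Cxcl1 and Cxcl2 each held GGGAATTTC, at bases 71 to 63 and 97 to 89 before the start, and it overlaps GGGAAATTC on the opposite strand, so the capitals are 1 run. TTCNNNGAA (7.02% of windows) and GGGACTTTC (0.289%) matched no member. Both Cxcl9 matches are lost when the motifs are spelled with a further base (A after GAAANNGAA, C after GGGAATTTC), and the other matches named here are kept. These matches are letters in a window and were not measured as binding.

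The matrices held 60181 barcodes with unique molecular identifiers (UMIs) that totaled from 34874702 to 96803926 per kidney, and 45667 cells were kept. Libraries shared between 0 and 111 barcodes. The 2 naive kidneys shared 111, pairs of transplanted kidneys 18 to 35, and a naive and a transplanted kidney 0 to 4. The reason for this split was not tested. Cells were grouped by marker genes into classes that end in "-like", and 45340 cells lay in a named class. Median depth per kept cell was 3586 and 3460 UMIs for naive, 2533 and 3562.5 for rejecting, and 6147 and 7316.5 for tolerized kidneys, so the tolerized libraries were the deepest. Levels are CPM, the UMIs of a gene scaled to the same total for each class and kidney, listed for kidney 1 and then kidney 2 of a group. Macrophage-like cells numbered 36 and 96 for naive, 1249 and 1322 for rejecting, and 1048 and 325 for tolerized kidneys. All but 1 cell of the class in each naive kidney lay in a cluster that held fewer of the transplanted macrophage-like cells, which sat mainly in a deeper cluster.

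Cxcl9 was carried mainly by myeloid cells of the transplanted kidneys. In macrophage-like cells it reached 4125 and 3112 CPM in rejecting and 2470.0 and 2828 CPM in tolerized kidneys, against 11.4 and 13.8 CPM, or 1 and 4 UMIs, in naive kidneys. Group means were 3619 ± 717 in rejecting and 2649 ± 253 in tolerized kidneys (SD, n = 2). Monocyte-like cells carried Cxcl9 at 3809 and 3326 CPM in rejecting and 2449 and 3063 CPM in tolerized kidneys, with no UMI (0 and 0) in naive ones. Conventional DC-like cells followed at 1721 and 1492 CPM and at 1835 and 1552 CPM. Over the transplanted kidneys the ranges of macrophage-like and monocyte-like cells overlapped, and both lay above that of conventional DC-like cells, which lay above the other classes with at least 20 cells in each transplanted kidney except neutrophil-like cells. Those had 1617 CPM in rejecting kidney 1, from 102 UMIs, and 139 CPM or less in the other transplanted kidneys. In naive kidney 2, 39 Cxcl9 UMIs came from 3 conventional DC-like cells, a number too small to compare.

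**Figure D1:**
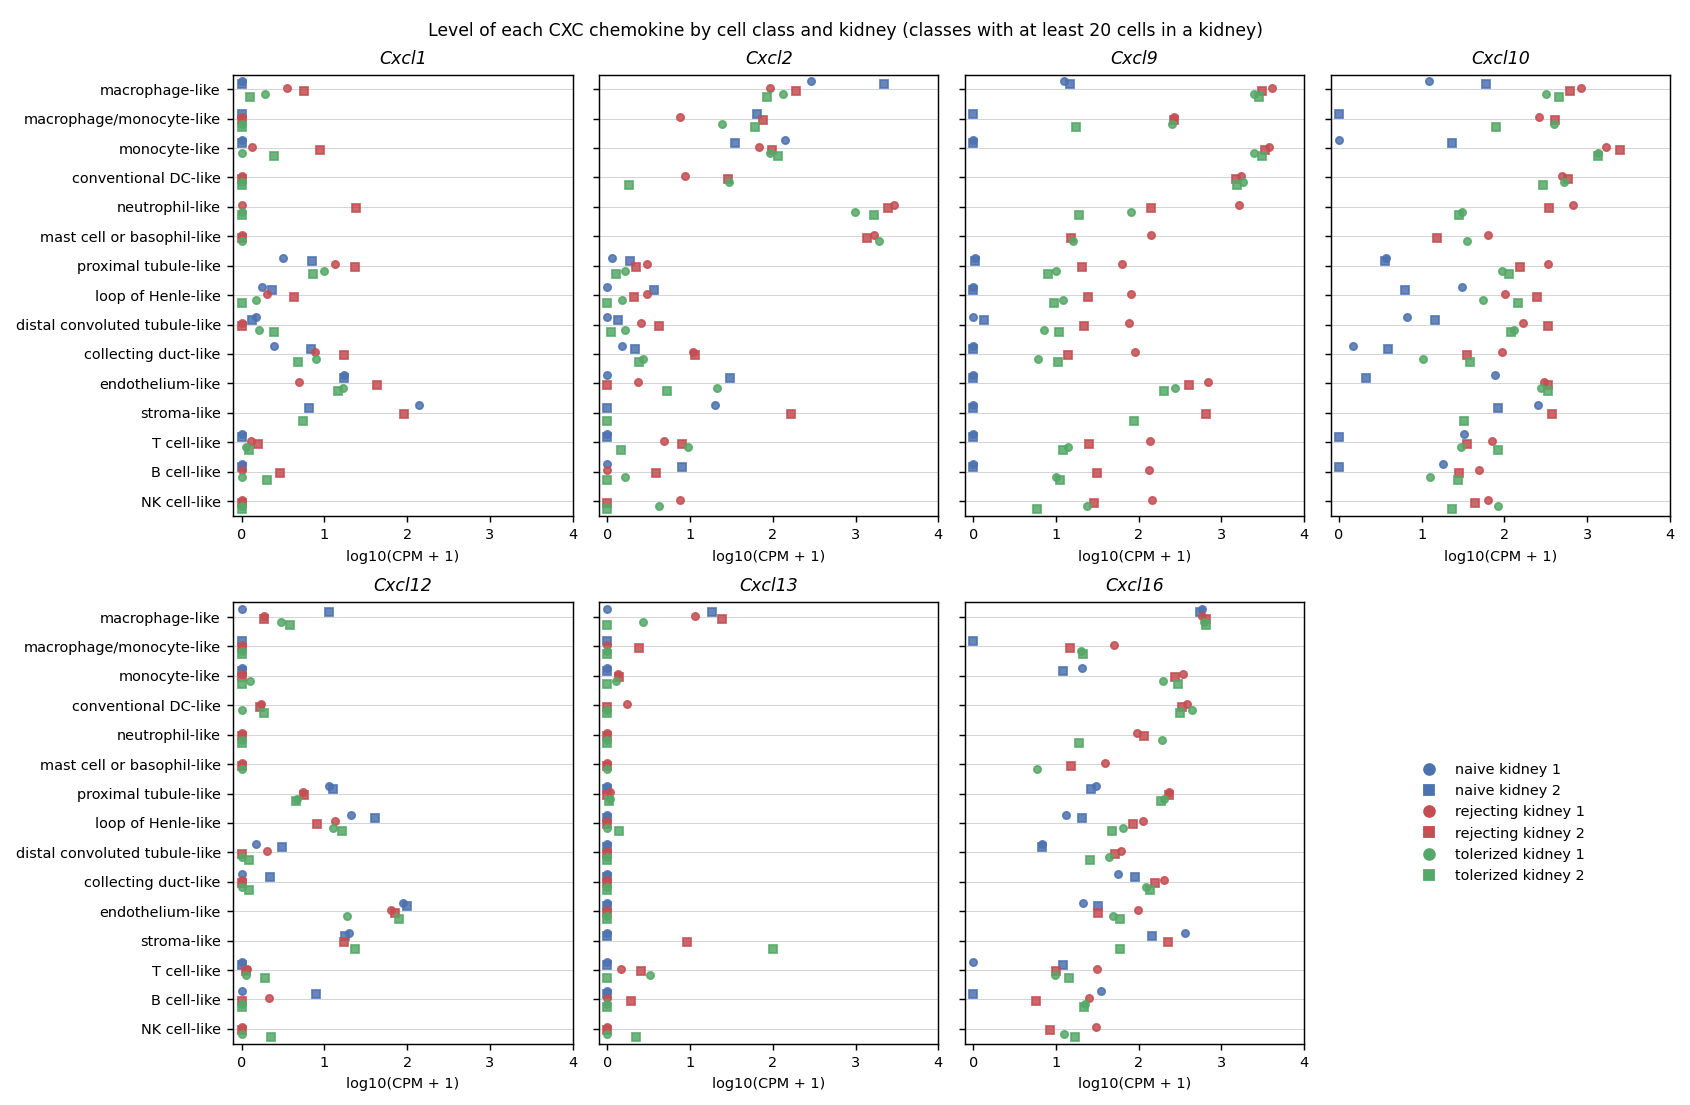
Level of each CXC chemokine, as log10(CPM + 1), in 15 cell classes, with 1 point per kidney (circles, kidney 1; squares, kidney 2; blue naive, red rejecting, green tolerized) and classes with under 20 cells in a kidney left out. In macrophage-like and monocyte-like cells, Cxcl9 was at 13.8 CPM or less in naive kidneys and between 2449 and 4125 CPM in transplanted kidneys. Cxcl16 in macrophage-like cells stayed between 557 and 660 CPM in all 6 kidneys.

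Cells differ in depth, so each cell was thinned to 1000 UMIs to compare shares of cells with a Cxcl9 UMI, and 311 to 1293 macrophage-like cells per transplanted kidney were deep enough. A Cxcl9 UMI was then found in 76.9% and 69.2% of macrophage-like cells in rejecting and in 61.7% and 59.5% in tolerized kidneys. Without thinning the shares were 91.8% and 89.0%, and 90.0% and 81.8%. In monocyte-like cells the thinned shares were 52.4% and 47.3%, and 30.7% and 37.3%. The thinned shares of the groups did not overlap in either class, whereas the unthinned macrophage-like shares did. How many of all genes had this order after thinning was not counted. By CPM, 24.1% of genes were lower without overlap in tolerized macrophage-like cells and 22% in monocyte-like cells. As a background, B cell-like cells, which should lack the gene, gave 11.1% and 3.22%, and 0.515% and 1.41% after thinning. Their median depth was 2090 to 3840 UMIs, against 8592 to 14674.5 in macrophage-like cells.

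Cxcl10 had another order of sources. Monocyte-like cells held the most, at 1697 and 2520 CPM in rejecting and 1343 and 1346 CPM in tolerized kidneys, above every other class without overlap. Macrophage-like cells had 845 and 619 CPM in rejecting and 321 and 462 CPM in tolerized kidneys, and conventional DC-like cells had 493 and 592 CPM and 522 and 289 CPM, so these classes overlapped. Proximal tubule-like cells, the reabsorbing epithelium that fills most of the cortex, had 334 and 154 CPM in rejecting and 91.5 and 114 CPM in tolerized kidneys. Distal convoluted tubule-like cells had 168 and 336 CPM and 130.1 and 118 CPM. Endothelium-like cells had 297 and 338 CPM and 273 and 340.4 CPM. In naive kidneys, Cxcl10 was at 11.4 and 58.5 CPM in macrophage-like cells and 2.68 and 2.63 CPM in proximal tubule-like cells.

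Counted over all kept cells, the myeloid classes (macrophage-like, cycling macrophage-like, monocyte-like, and macrophage/monocyte-like cells) held 91.1% and 93.7% of Cxcl9 UMIs in rejecting and 92.9% and 85.3% in tolerized kidneys. For Cxcl10 they held 66.8% and 78.3%, and 64.3% and 33.1%. Tubular classes held 24.7% and 12.6% of Cxcl10 UMIs in rejecting and 25.5% and 55.01% in tolerized kidneys, but at most 2.49% of Cxcl9 UMIs in any transplanted kidney. For Cxcl16 the myeloid share was 59.9% and 75.4%, and 53.0% and 26.9%. The shares of all UMIs moved in the same direction, with 32.2% and 38.8% myeloid in rejecting and 24.2% and 8.59% in tolerized kidneys. Tubular classes held 42.2% and 30.1% of all UMIs in rejecting and 57.2% and 75.3% in tolerized kidneys. In each transplanted kidney that was above their share of Cxcl10 UMIs. Fewer cells of a type and less RNA per cell cannot be told apart in such shares. By an exact two-sided permutation test over kidneys, no share could go below p = 0.33333, the value reached by the Cxcl10 and Cxcl16 shares.

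**Figure D2:**
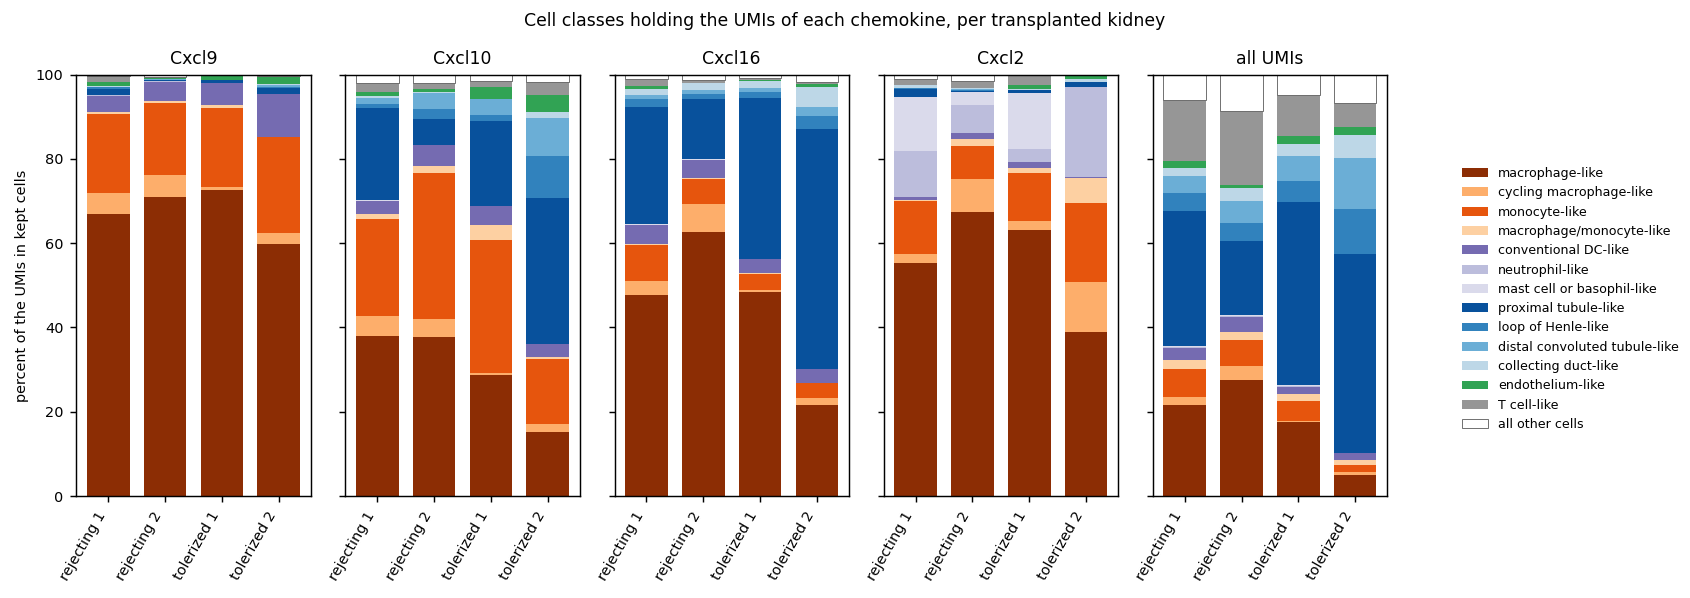
Percent of the UMIs of Cxcl9, Cxcl10, Cxcl16, Cxcl2, and of all genes that each cell class held, as stacked bars per transplanted kidney. Myeloid classes (browns) held 85.3% to 93.7% of Cxcl9 UMIs in each kidney. Tubular classes (blues) held 12.6% to 55.01% of Cxcl10 UMIs, and 30.1% to 75.3% of the UMIs of all genes.

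Because free RNA reaches every droplet, each chemokine was set against the macrophage genes C1qa, C1qb, and C1qc (complement C1q) in the same cells, and this ratio was divided by that of macrophage-like cells of the same kidney. For Cxcl9 in proximal tubule-like cells it was 1.41 and 2.65 for rejecting and 2.07 and 3.84 for tolerized kidneys. It was 1.35 and 1.54, and 1.46 and 1.88 in B cell-like cells. Over the 4 tubular classes and the transplanted kidneys it ranged from 1.23 in loop of Henle-like cells to 6.67 for the distal convoluted tubule. T cell-like cells had ratios from 1.24 to 2.38. In endothelium-like cells the Cxcl9 ratio was 15.6 and 71.1, and 40.8 and 62.0. In conventional DC-like cells it was 24.6 and 21.7 in rejecting kidneys and 34.2 and higher in tolerized kidneys.

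For Cxcl10 the ratio was 36.5 and 103 in rejecting proximal tubule-like cells and 163 and 379 in tolerized ones. Distal convoluted tubule-like cells had ratios of 14.2 and 279 for rejecting and 261 and 487 for tolerized kidneys. B cell-like cells stood lower, at 2.46 and 7.00, and 14.2 and 30.0. T cell-like cells had ratios of 3.06 and 10.999, and 30.7 and 108, and NK cell-like cells 2.45 and 9.53, and 74.5 and 25.9. The T cell-like ratio of tolerized kidney 2 thus exceeded the proximal tubule-like ratios of the rejecting kidneys. Within each kidney, proximal tubule-like and distal convoluted tubule-like cells stood above these lymphocyte classes. Loop of Henle-like cells did too, at 7.92 and 65.5, and 113 and 409.8. Collecting duct-like cells, at 6.34 and 34.7, and 22.3 and 75.03, did so only in rejecting kidneys. Both tolerized values lay below those of T cell-like cells. Monocyte-like cells had ratios of 28.2 and 73.9, and 103 and 33.96. These lay below proximal tubule-like cells in each kidney but above the other tubular classes in some. Free RNA from monocyte-like cells was not tested as a source. After thinning, a Cxcl10 UMI was found in 13.8% and 8.46% of proximal tubule-like cells in rejecting and 4.28% and 6.04% in tolerized kidneys, against 3.93% and 1.49%, and 0.258% and 0.939% of B cell-like cells. Without thinning the proximal tubule-like shares were 24.7% and 19.4%, and 12.3% and 18.5%. In each transplanted kidney the thinned Cxcl10 share of proximal tubule-like cells was the higher.

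**Figure D3:**
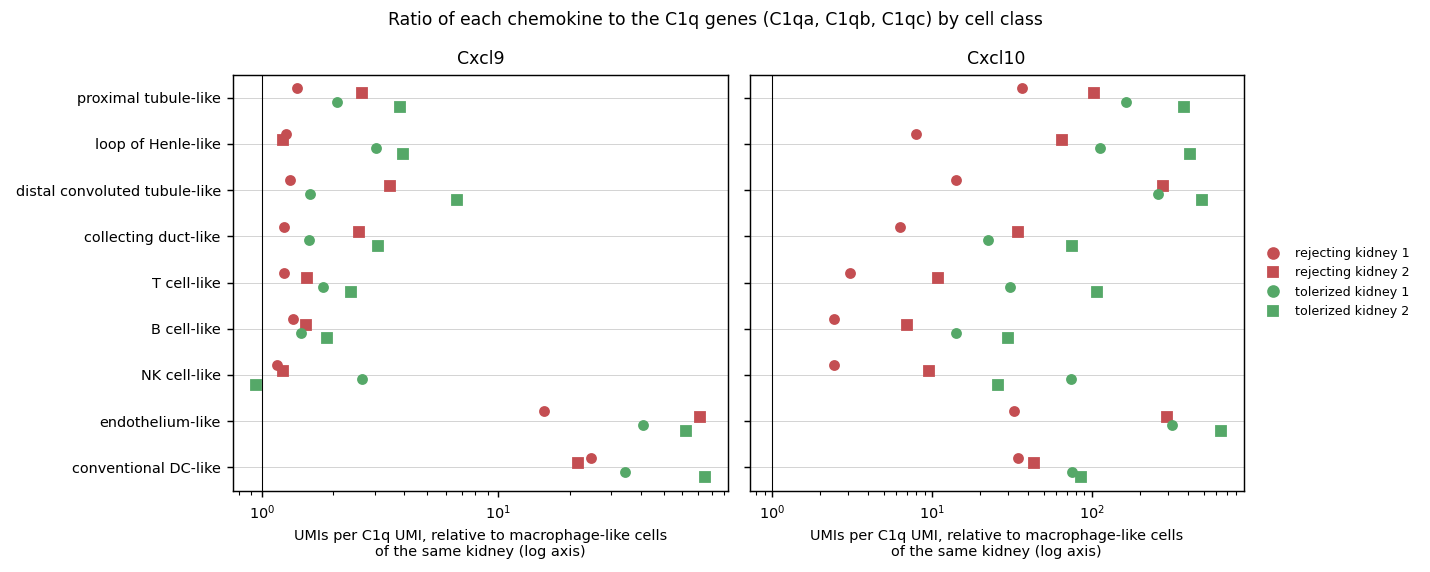
UMIs of Cxcl9 and of Cxcl10 per UMI of the C1q genes in 9 cell classes, relative to macrophage-like cells of the same kidney (vertical line at 1; log axis; 1 point per transplanted kidney). Cxcl9 in proximal tubule-like cells lay between 1.41 and 3.84, and Cxcl10 between 36.5 and 379.

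The transcripts also differed in how many cells held them. In macrophage-like cells of the rejecting kidneys, 12.97% and 12.6% of cells held 50% of the Cxcl9 UMIs, and 11.5% and 10.5% did in tolerized kidneys. For Cxcl10 in proximal tubule-like cells it took 1.85% and 1.41% of cells in rejecting and 0.931% and 1.24% in tolerized kidneys, which is 52, 16, 33, and 28 cells. Up to 175 Cxcl10 UMIs were counted in 1 proximal tubule-like cell. Cxcl16 was spread over more of the same cells, with 11.1% and 13.5%, and 15.2% and 14.8% holding 50%. In endothelium-like cells, 1 cell held 254 of 434 Cxcl9 UMIs in tolerized kidney 1, 165 of 282 in tolerized kidney 2, and 83 of 144 in rejecting kidney 2. Endothelium-like Cxcl9 was at 690 and 409 CPM in rejecting and 271 and 200.4 CPM in tolerized kidneys, and at 524 and 178 CPM and 113 and 83.9 CPM once the highest cell of each kidney was left out, a step added after the data were seen. Cxcl10 in tolerized kidney 2 was then at 161 CPM in place of 340.4 CPM.

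**Figure D4:**
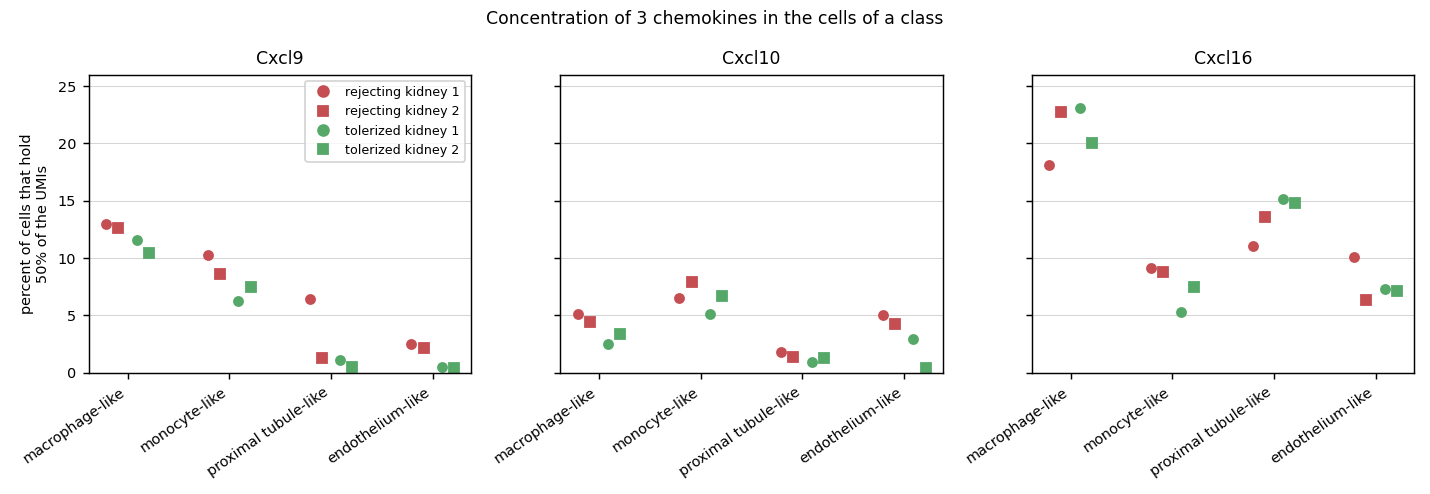
Percent of the cells of a class that hold 50% of the UMIs of Cxcl9, Cxcl10, and Cxcl16 (vertical axis; 1 point per transplanted kidney, red rejecting and green tolerized). In proximal tubule-like cells, 50% of the Cxcl10 UMIs sat in 0.931% to 1.85% of cells, and 50% of the Cxcl16 UMIs in 11.1% to 15.2%.

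Cells with a Cxcl9 UMI more often had a Cxcl10 UMI than cells without, in each transplanted kidney. After thinning, 33.7% and 27.9% of macrophage-like cells with a Cxcl9 UMI also had Cxcl10 in rejecting kidneys, against 16.5% and 11.6% of those without. In tolerized kidneys the shares were 17.3% and 29.2%, against 7.81% and 7.14%. Monocyte-like cells with Cxcl9 more often had Cxcl16, at 33.7% and 27.0%, and 26.2% and 32.0%, against 2.99% and 5.83%, and 5.46% and 3.57% of those without. For Cxcl2 in macrophage-like cells the order went both ways, with 5.64% and 8.27% of cells with Cxcl9 and 4.04% and 10.3% of cells without in rejecting kidneys. Cells of a kidney are not replicates, and these shares are a description.

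The study's main question is how tolerized kidneys differ from rejecting ones. In macrophage-like, macrophage/monocyte-like, and monocyte-like cells, no member passed a false discovery rate (FDR) of 0.05 in edgeR's quasi-likelihood test over all genes of the class. At an unadjusted p under 0.05 the count was 4 of 7, 0 of 4, and 1 of 4 members. Over all genes that count was 656 of 11258, 357 of 6899, and 494 of 9081. DESeq2 called 0 members in each, beside 31, 12, and 9 genes. At the FDR, edgeR called 0% of all genes in these classes. The log2 fold change, tolerized over rejecting, was -0.37 ± 0.21 for Cxcl9 (SE, FDR = 0.899) and -0.82 ± 0.26 for Cxcl10 (FDR = 0.736) in macrophage-like cells. In monocyte-like cells it was -0.28 ± 0.24 for Cxcl9 (FDR = 0.974) and -0.56 ± 0.24 for Cxcl10 (FDR = 0.914). The kidneys did not overlap for 4 members that were lower in tolerized macrophage-like cells (Cxcl1, Cxcl9, Cxcl10, and Cxcl13), where 24.1% of all genes were lower without overlap. For Cxcl12, at 0.883 and 0.877 CPM in rejecting and 2.01 and 2.83 CPM in tolerized kidneys, the order was the opposite, as it was for 12.6% of genes. In monocyte-like cells 2 of 4 members, Cxcl9 and Cxcl10, were lower without overlap, beside 22% of all genes. In macrophage/monocyte-like cells Cxcl9 was at 264 and 264 CPM in rejecting and 250.2 and 16.7 CPM in tolerized kidneys, lower without overlap as were 19.3% of genes. The name of this class rests on marker counts and does not place it between the other classes. Its C1q genes were at 394 and 180 CPM in rejecting and 71.2 and 20.3 CPM in tolerized kidneys, below the 817 to 1600 CPM of monocyte-like cells. Its summed macrophage markers were at 3197 to 4773 CPM, beside 3421 to 3899 CPM in monocyte-like cells. No member was higher without overlap in macrophage/monocyte-like cells (13.3% of genes) or monocyte-like cells (12.3%).

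For Cxcl9 and Cxcl10 the order held inside both clusters that make up the macrophage-like class. In the deeper cluster Cxcl9 was at 4198 and 3138 CPM in rejecting and 2493 and 2888 CPM in tolerized kidneys, and in the shallower one at 2518 and 2177 CPM and 1541 and 1779 CPM. Cxcl10 in the deeper cluster was at 864 and 626 CPM and 326 and 473 CPM, and in the shallower cluster at 418 and 348 CPM and 137 and 271 CPM. In the shallower cluster Cxcl1 and Cxcl13 had 0 UMIs in all 4 transplanted kidneys and Cxcl12 had 1 UMI, so the order of those members came from the deeper cluster. Cxcl13 needs its counts beside its change of -3.75 ± 0.68 (FDR = 0.59). Its macrophage-like UMIs were 106 and 264 for rejecting and 24 and 0 for tolerized kidneys, in 1, 5, 1, and 0 cells. All 106 UMIs of rejecting kidney 1 came from 1 cell, so the value describes a handful of cells. Without rejecting kidney 2, the edgeR changes in macrophage-like cells were -1.04 for Cxcl10 and -3.12 for Cxcl13.

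In tubular cells, no member passed the FDR between tolerized and rejecting kidneys either, and Cxcl9 came nearest to it. Its log2 change was -2.21 ± 0.44 in proximal tubule-like (FDR = 0.205), -2.39 ± 0.46 in loop of Henle-like (FDR = 0.0751), and -2.50 ± 0.49 (FDR = 0.0654) for distal convoluted tubule-like cells. DESeq2 called Cxcl9 in each of these 3 classes, beside 205 of 12639, 30 of 9755, and 63 of 10738 genes. Without rejecting kidney 2 the Cxcl9 changes in edgeR were -2.78, -3.01, and -3.15. With the replicate number as a block, edgeR called it in loop of Henle-like (-2.15, FDR = 0.00966) and distal convoluted tubule-like cells (-2.32, FDR = 0.0119). At an unadjusted p under 0.05 edgeR counted 4 of 6, 2 of 4, 3 of 3, and in collecting duct-like cells 3 of 5 members. Over all genes edgeR counted 1425 of 12639, 656 of 9755, 931 of 10738, and 698 of 10431 in the same order. It called 0% of all genes in proximal tubule-like and collecting duct-like cells, 0.0923% in loop of Henle-like cells, and 0.205% among those of the distal convoluted tubule. Proximal tubule-like Cxcl9 was at 62.7 and 19.9 CPM in rejecting and 8.94 and 7.07 CPM in tolerized kidneys. The order was not limited to tubular cells. B cell-like cells, which should lack the gene, had 29.97 to 131 CPM in rejecting and 9.13 to 10.29 CPM in tolerized kidneys. T cell-like cells had 24.4 to 137 CPM and 11.2 to 12.96 CPM, and NK cell-like cells 27.7 to 146 CPM and 4.92 to 22.7 CPM. The change in these lymphocyte classes was not tested. All 6 members tested in proximal tubule-like cells were lower in tolerized kidneys without overlap, as were 35.9% of all genes. The counts were 2 of 4 members beside 18.3% of genes for the loop of Henle, 3 of 3 beside 16.5% for the distal convoluted tubule, and 3 of 5 beside 20.3% for the collecting duct. In the same order, from the proximal tubule to the collecting duct, 7.28%, 16.9%, 17.9%, and 15.4% of genes were higher without overlap, and 0 members were.

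Among the transplanted kidneys, macrophage markers in tubular cells were highest where Cxcl9 was. The summed level of 11 such genes in proximal tubule-like cells was 95.7 and 87.6 CPM in naive, 513 and 177 CPM in rejecting, and 150.2 and 68.7 CPM in tolerized kidneys, with 10 or 11 of 11 genes detected. T cell markers were at 1.20 and 1.25 CPM, 188 and 43.1 CPM, and 18.5 and 14.0 CPM, with all 10 detected in transplanted kidneys. Their part in the result was not tested. The Cxcl9 change differed by 1.62 ± 0.37 on the log2 scale between macrophage-like and proximal tubule-like cells (FDR = 0.349), and for Cxcl10 the difference was 0.13 ± 0.27 (FDR = 1). No member passed in this test of the class by group term. In it, 5 of 7 members had an unadjusted p under 0.05, beside 1022 of 13150 genes. DESeq2 called 0 members, and at the FDR edgeR called 0% of all genes.

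In endothelium-like cells the log2 change of Cxcl9 from rejecting to tolerized kidneys was -1.22 ± 0.30 (FDR = 0.4) and that of Cxcl10 was -0.02 ± 0.66 (FDR = 1). No member was called by edgeR, which called 0% of genes, or by DESeq2, which called 10 of 8574 genes. In edgeR 1 of 6 members, Cxcl9, had an unadjusted p under 0.05, beside 555 of 8574 genes. Cxcl9 was lower in tolerized kidneys without overlap, as were 16.9% of genes, and Cxcl2 was higher, as were 16.3%. The Cxcl2 counts were 1 and 0 UMIs in rejecting and 32 and 6 UMIs in tolerized kidneys. Over all kept cells, taken as a bulk sample, the change was -1.53 ± 0.84 for Cxcl9 (FDR = 0.28), -1.32 ± 0.23 for Cxcl10 (FDR = 0.134), and -3.27 ± 0.72 for Cxcl13 (FDR = 0.134). DESeq2 called Cxcl10 and Cxcl13 there. The same members had an unadjusted p under 0.05 in edgeR, beside 4067 of 15719 genes, and at the FDR edgeR called 0% of genes. Of 7 members, 5 were lower without overlap, beside 34% of genes. None was higher, beside 25.6%. Numbers of cells of a type and RNA per cell cannot be told apart in this sum. Called doublets, left out of it, held 6 and 6 Cxcl13 UMIs in rejecting and 86 and 1 in tolerized kidneys.

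**Figure D5:**
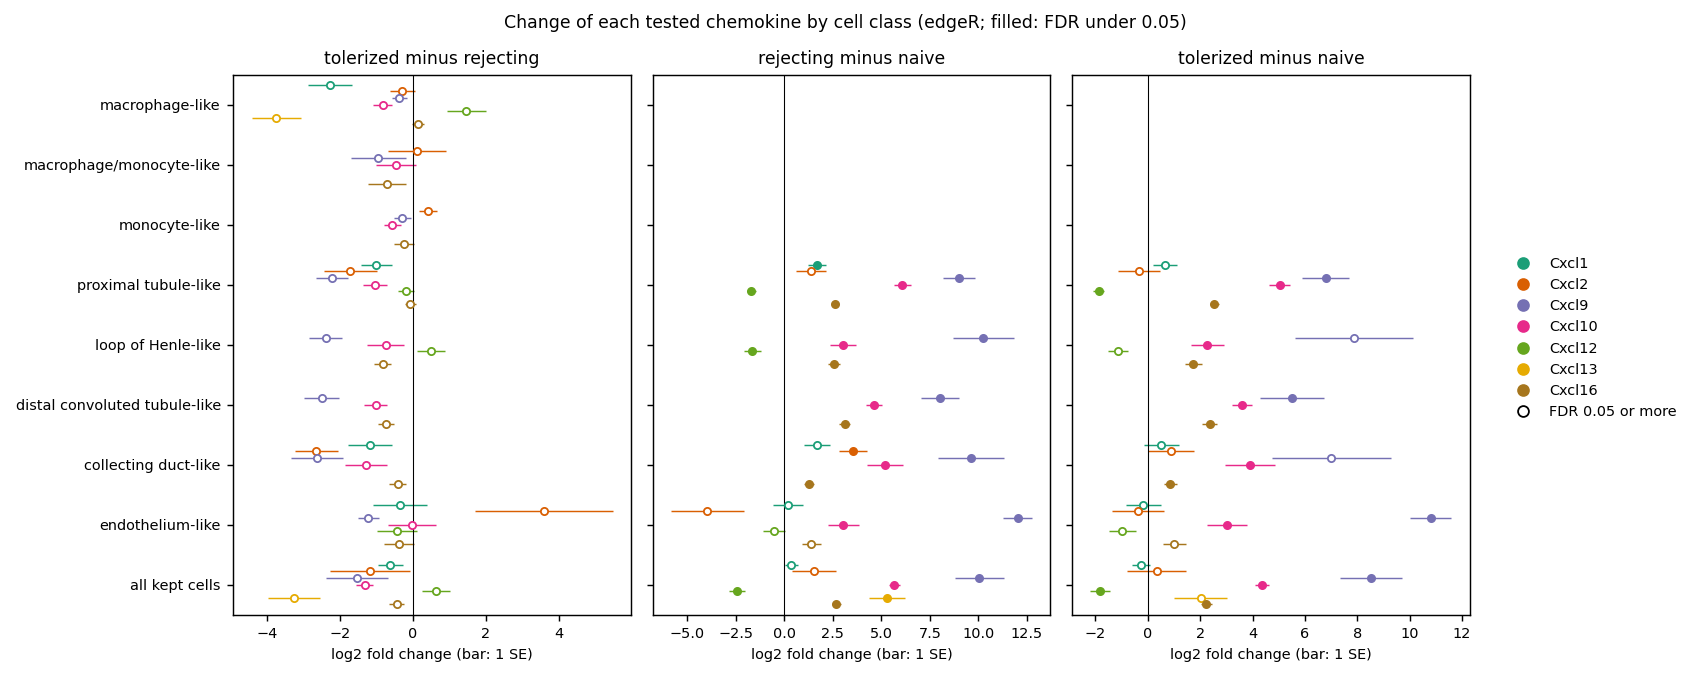
Log2 fold change of each tested member with 1 SE (horizontal axis) by cell class, for tolerized over rejecting, rejecting over naive, and tolerized over naive kidneys (filled points, FDR under 0.05; naive macrophage-like and monocyte-like cells were not in these fits). No point is filled between tolerized and rejecting kidneys, whereas Cxcl10 and Cxcl16 are filled in every tubular class against naive kidneys.

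Against naive kidneys, Cxcl10 rose in all 4 tubular classes and in endothelium-like cells of both transplanted groups, and Cxcl9 rose in all 5 of these classes in rejecting and in 3 of 5 in tolerized kidneys. DESeq2 called Cxcl9 in 5 of 5 classes of tolerized kidneys. Beside it stood 4020 of 12639 genes in proximal tubule-like, 687 of 9755 in loop of Henle-like, and 1260 of 10738 in distal convoluted tubule-like cells. In collecting duct-like cells these were 950 of 10431 and in endothelium-like cells 681 of 8574 genes. With the replicate block, edgeR called Cxcl9 in the remaining classes too, loop of Henle-like (FDR = 0.00583) and collecting duct-like cells (FDR = 0.0335). The calls of that blocked fit over all genes are not listed here. In proximal tubule-like cells, 5 of 6 members passed the FDR in rejecting kidneys, beside 41.5% of all genes tested. Cxcl10 rose by 6.08 ± 0.43 (FDR = 4.24e-05) and Cxcl16 by 2.61 ± 0.17 (FDR = 2.65e-05), from 29.8 and 25.9 CPM in naive to 229 and 232 CPM in rejecting kidneys. Cxcl1 rose by 1.66 ± 0.46 (FDR = 0.0205), from 2.16 and 6.11 CPM to 12.4 and 22.7 CPM, but 51 of its 165 UMIs in rejecting kidney 2 came from 1 cell, and without naive kidney 1 or rejecting kidney 2 the FDR was 0.100 or 0.105. Cxcl12 fell by 1.70 ± 0.22 (FDR = 0.000817), from 10.4 and 11.8 CPM to 4.53 and 4.68 CPM. Cxcl9 rose as well (FDR = 0.000156). With 2 Cxcl9 UMIs in the naive proximal tubule-like cells, the ratio of its pooled levels was 880, with a 95% exact counting interval of 243 to 7278. Its level in rejecting kidneys was 19.9 to 62.7 CPM, beside 30.0 to 131 CPM in B cell-like cells, which should lack the gene. The part of free RNA in this rise was not tested. Collecting duct-like Cxcl10 was at 34.8 to 93.9 CPM in rejecting and 9.45 to 37.4 CPM in tolerized kidneys. B cell-like cells had 27.2 to 48.8 CPM and 11.6 to 26.8 CPM of it. T cell-like cells had 34.6 to 69.1 CPM and 28.7 to 82.9 CPM. How much free RNA added to the collecting duct-like rise of Cxcl10 was not tested either.

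In tolerized kidneys 4 of 6 members passed in proximal tubule-like cells, beside 31.5% of genes. These were Cxcl9, Cxcl10 (5.03 ± 0.41, FDR = 0.000105), Cxcl12 (-1.88 ± 0.21, FDR = 0.000527), and Cxcl16 (2.54 ± 0.17, FDR = 2.87e-05). Cxcl1 was at 8.94 and 6.32 CPM there (FDR = 0.29). The rejecting and tolerized kidneys were compared with the same naive kidneys.

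The other tubular classes gave like counts. Against naive kidneys, 4 of 4 members passed in rejecting loop of Henle-like cells (15.7% of genes), 3 of 3 for the distal convoluted tubule (23.3%), and 4 of 5 for the collecting duct (17.1%). In tolerized kidneys the counts were 2 of 4 (9.97%), 3 of 3 (17.9%), and 2 of 5 (14.9%). Cxcl10 and Cxcl16 passed in all of these with edgeR. In tolerized kidneys DESeq2 did not call Cxcl10 in loop of Henle-like cells or Cxcl16 in collecting duct-like cells. Cxcl12 fell by 1.65 ± 0.43 in rejecting loop of Henle-like cells (FDR = 0.0238), where its naive levels were 19.9 and 39.9 CPM. That call was lost without naive kidney 2 (FDR = 0.154), without rejecting kidney 2 (FDR = 0.106), and, as for Cxcl9 and Cxcl10 there, with at most 20% mitochondrial UMIs. Tolerized Cxcl10 lost its call in loop of Henle-like and collecting duct-like cells without naive kidney 1, naive kidney 2, or tolerized kidney 2 (FDR between 0.0556 and 0.256), and tolerized Cxcl9 did in distal convoluted tubule-like cells (0.0563 to 0.124). Rejecting Cxcl2 in collecting duct-like cells, at 9.95 and 10.5 CPM against 0.49 and 1.18 CPM, lost it without either naive kidney or rejecting kidney 2 (0.0618 to 0.118). Cxcl16 lost it in tolerized collecting duct-like cells without naive kidney 1 or either tolerized kidney (0.0835 to 0.269) and in tolerized loop of Henle-like cells without naive kidney 1 (0.0948), and in rejecting collecting duct-like cells Cxcl10 (0.052) and Cxcl16 (0.0718) lost it without naive kidney 1, as rejecting Cxcl10 did in loop of Henle-like cells without naive kidney 2 (0.0601). Cxcl9 had 0 naive UMIs in loop of Henle-like and collecting duct-like cells. Against the level that 3 counts over the naive group would give, it was at least 15.9-fold and 16.1-fold higher in the lower of the rejecting kidneys, and at least 5.91-fold and 6.40-fold higher in the lower of the tolerized kidneys. Rejecting levels were 23.2 to 79.0 CPM in loop of Henle-like and 12.9 to 89.5 CPM in collecting duct-like cells. B cell-like cells of the same kidneys had 30.0 to 131 CPM.

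Endothelium-like cells numbered 269 and 233 for naive, 119 and 47 for rejecting, and 205 and 225 for tolerized kidneys. Cxcl9 and Cxcl10 rose there, 2 of 6 members in rejecting (16.6% of genes) and in tolerized kidneys (13.1%). Cxcl9 was at least 221-fold higher in rejecting and 108-fold higher in tolerized kidneys than 3 counts over the naive group. Cxcl10 changed by 3.04 ± 0.78 (FDR = 0.0249) and 3.02 ± 0.76 (FDR = 0.0273), although 50 of the 57 UMIs of naive kidney 1 came from 1 cell, and DESeq2 did not call it in either comparison. Without naive kidney 1 the changes were 7.91 and 7.90. Among classes with at least 20 cells in each transplanted kidney, Cxcl12 was highest in this one, at 86.8 and 99.4 CPM in naive, 62.4 and 71.0 CPM in rejecting, and 17.5 and 78.9 CPM in tolerized kidneys. Its change did not pass (rejecting over naive -0.55 ± 0.55, FDR = 0.53), and the low value of tolerized kidney 1 set the direction between the transplanted groups, which was -0.43 with that kidney and 0.33 without it.

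Over all kept cells, 5 of 7 members passed between rejecting and naive kidneys, beside 57% of genes. Cxcl9, Cxcl10, Cxcl13, and Cxcl16 were higher, and Cxcl12 was lower. In tolerized kidneys 4 of 7 passed (32.1%), Cxcl13 not among them, and Cxcl12 lost its call without either naive kidney (FDR = 0.0627 and 0.0958). In sums over all kept cells, numbers of cells of a type and RNA per cell cannot be told apart. Macrophage-like cells numbered 36 and 96 in naive and 1249 and 1322 in rejecting kidneys. Myeloid classes held 96.4% and 95% of the Cxcl13 UMIs in rejecting kidneys, and those of macrophage-like cells lay in a handful of cells. Stroma-like cells were too few to test, at 41 and 36, 3 and 22, and 8 and 37 cells. Cxcl9 UMIs in them were 0 and 0, 0 and 161, and 3 and 19.

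Naive macrophage-like and monocyte-like cells were few, and a fit that takes them in was added after the data were seen. In it the median log2 change of all genes was 0.27 and 0.26 in macrophage-like cells, for rejecting and tolerized over naive kidneys, and 0.30 and 0.25 in monocyte-like cells, against which the members should be read. Macrophage-like Cxcl9 rose by 8.10 ± 0.40 (FDR = 6.19e-07) in rejecting kidneys and 7.72 ± 0.40 in tolerized kidneys (FDR = 1.08e-06), and Cxcl10 by 4.01 ± 0.45 (FDR = 0.000223) and 3.18 ± 0.46 (FDR = 0.00154). Cxcl2 fell by 3.28 ± 0.68 (FDR = 0.00826) and 3.57 ± 0.69 (FDR = 0.00816). These were the 3 of 7 members that passed, beside 14% and 9.41% of genes. Between tolerized and rejecting kidneys the same fit called 0 members and 0.0181% of genes in macrophage-like cells. In it, 4 of 7 members had an unadjusted p under 0.05 there, and its count over all genes is not listed here. The separate fit without naive kidneys also had 4 of 7 members under that limit, beside 656 of 11258 genes of its own. In monocyte-like cells Cxcl9, Cxcl10, and Cxcl16 passed, 3 of 4, beside 5.5% and 2.14% of genes. Monocyte-like Cxcl9 was at least 211-fold higher in rejecting and 156-fold higher in tolerized kidneys than 3 counts over the naive group.

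Cxcl16 in macrophage-like cells was at 581 and 557 CPM in naive, 577 and 651 CPM in rejecting, and 624 and 660.3 CPM in tolerized kidneys. In that fit it differed from naive by 0.16 ± 0.22 in rejecting (FDR = 0.679) and 0.30 ± 0.22 in tolerized kidneys (FDR = 0.435). The shallower cluster held nearly all naive cells of the class. Within it Cxcl16 was at 522 and 563 CPM in naive kidneys, from 43 and 159 UMIs in 35 and 95 cells. It was at 366 and 406 CPM in rejecting and 457 and 442 CPM in tolerized kidneys of that cluster. There it was lower in transplanted kidneys without overlap, which was not tested, and how many of all genes had this order was not counted. Monocyte-like Cxcl16 was at 19.7 and 11.2 CPM in naive, 343 and 275 CPM in rejecting, and 196 and 294 CPM in tolerized kidneys. After thinning, a Cxcl16 UMI was found in 2.84% and 2.32% of naive proximal tubule-like cells, and in 19.5% and 21.8%, and 18.4% and 17.0% of transplanted ones. Without thinning these shares were 10.4% and 8.64%, 50.1% and 59.0%, and 69.2% and 73.3%. In B cell-like cells the thinned share was at most 3.57%.

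Among classes with at least 20 cells in each transplanted kidney, Cxcl2 was highest in neutrophil-like cells, at 2885 and 2473 CPM in rejecting and 974 and 1654 CPM in tolerized kidneys, from 182, 213, 97, and 181 UMIs. Mast cell or basophil-like cells, which numbered 44, 25, 42, and 4 in these kidneys, had 1681 and 1375 CPM in rejecting and 1941 and 0 CPM in tolerized kidneys, so in tolerized kidney 1 they lay above neutrophil-like cells. Macrophage-like cells, which were more numerous, held more of its UMIs, and their level was 285 and 2195 CPM in naive, 91.2 and 187 CPM in rejecting, and 131 and 84.4 CPM in tolerized kidneys. The naive pair spanned a wide range, from 25 and 638 UMIs. Cxcl1 in endothelium-like cells came to 12 and 14 UMIs in naive kidneys, 3 and 15 in rejecting kidneys (3.98 and 42.6 CPM), and 25 and 19 in tolerized kidneys (15.6 and 13.5 CPM), so the transplanted groups overlapped. Cxcl13 was counted 0 and 5 times in naive, 138 and 280 times in rejecting, and 46 and 29 times in tolerized kidneys over all kept cells. Of the 29, 22 came from stroma-like cells, 20 of them from 1 cell.

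Genes of the interferon-gamma axis, which induces Cxcl9 and Cxcl10, were followed from a list. In proximal tubule-like cells 11 of 12 were higher in rejecting than in naive kidneys and 9 of 12 in tolerized kidneys, with median log2 changes of 3.16 and 2.59, against 0.07 and 0.06 for all genes, of which 41.5% and 31.5% passed in either direction. Irf1, a transcription factor of the interferon response, rose from 1.34 and 2.56 CPM to 154 and 111 CPM in rejecting kidneys. Of the NF-kB and interleukin axis, which induces Cxcl1 and Cxcl2, 7 of 9 tested genes were higher in rejecting and 4 of 9 in tolerized kidneys, beside the same 41.5% and 31.5%. Between tolerized and rejecting kidneys none of these genes passed in proximal tubule-like or macrophage-like cells, where their lists had medians of -0.47 and -0.22 for the interferon axis and -0.64 and -0.26 for the NF-kB axis. Ifng itself was the exception among the classes tested, at 10.9 and 5.98 CPM in distal convoluted tubule-like cells of rejecting and 0.420 and 0.110 CPM in those of tolerized kidneys (log2 change -5.03, FDR = 0.0379), beside T cell markers of 252 and 84.2 CPM in rejecting and 42.4 and 18.7 CPM in tolerized kidneys. The part of those markers was not tested.

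Receptors were followed in the same classes. Cxcr3, which Cxcl9 and Cxcl10 bind, was at 158 and 126 CPM in rejecting and 159 and 140.1 CPM in tolerized T cell-like cells. Cxcr6, the Cxcl16 receptor, was at 605 and 579 CPM and 588 and 528 CPM in the same cells. Cxcr2 was highest in neutrophil-like cells, at 697 and 1196 CPM and 1005 and 1599 CPM, and Cxcr5 in B cell-like cells, at 178 and 175 CPM and 193 and 139 CPM. Over all kept cells, 5 of 6 tested receptors were higher and 1, Ackr3, was lower in rejecting than in naive kidneys, beside 57% of all genes called in either direction. None passed between tolerized and rejecting kidneys. Sums over all kept cells do not tell numbers of cells of a type from RNA per cell. Of the other CXC ligands, Cxcl17 and Pf4, a chemokine of platelets that was also at 92.1 to 239 CPM in macrophage-like cells, were higher than in naive kidneys over all kept cells in both transplanted groups, 2 of 4 tested, beside 57% of genes called in rejecting and 32.1% in tolerized kidneys.

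For each member, the genes with the most similar pattern were sought among 13778 genes over 94 sums of cells by class and kidney. These sums share libraries and depth, so the correlations are a description. Cxcl9 was most like Gbp5 (Pearson's r = 0.829), C1qb (0.826), and Aif1 (0.814). Cxcl10 was most like Cxcl9 (0.806), Gm4951 (0.751), and Gbp2 (0.747). Cxcl2 was most like C5ar1 (0.898), Nlrp3 (0.882), and Ccl6 (0.848), and Cxcl12 most like Tcim (0.840), Esam (0.832), and Pdgfd (0.827). Cxcl16 was most like Myof (0.771), Creb5 (0.766), and Zmynd15 (0.762), and Cxcl1 most like Zfp462 (0.770), Spats2l (0.751), and Adamts1 (0.737). Cxcl13 reached 0.637 with Itga8, 0.553 with Cox4i2, and 0.539 with Cd5l.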

How the data were processed

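Single-cell RNA-seq libraries of 6 kidneys were analyzed from the count matrices deposited by the authors, which hold UMI counts per gene and barcode. Per the submitters' processing notes, bcl2fastq, Cell Ranger, and mm10 were used, and the matrix header names version 3.0.1 for the transplanted kidneys only. Gene lists differed (28692 genes in naive, 31053 in transplanted kidneys), and the 28208 shared genes were used. A barcode passed with 500 UMIs or more, 250 detected genes or more, and no more than 50% of UMIs from mitochondrial genes. The shallowest barcode that passed had 1538 and 1342 UMIs in naive kidneys but 500 to 502 UMIs in transplanted ones, so the naive matrices had a higher floor in effect. Doublets were then taken out as the highest Scrublet scores at 0.8% per 1000 barcodes, since the automatic call marked 0 to 280 barcodes per kidney. Cells were clustered with scanpy 1.11.5 (2500 variable genes, 40 components, 20 neighbors, Leiden resolution 1.5) into 41 clusters, and 39 were named from at least 3 markers. Each marker was detected in 10% or more of the cluster, at a CPM at least 2-fold the mean over all clusters. The classes were rebuilt here and can differ from those of the study.

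UMIs were summed by kidney and class (at least 20 cells per kidney). Sums were tested with edgeR 4.0.16 (TMM, filterByExpr, quasi-likelihood test, Benjamini-Hochberg over all genes of the class), and DESeq2 1.42.0 was an alternative. The script was tested on simulated data. The text names all members, the listed pathway genes past the FDR or highest in level, and for each member the 3 most correlated genes. The members and lists were chosen with earlier results of these data known. Exact Poisson intervals and limits of 3 counts cover counting error only. The study ran 2 experiments with 1 kidney of each group, but no label ties a replicate number to an experiment, and same-numbered kidneys did not deviate together (correlations between -0.18 and 0.16), so the numbers were not taken as pairs. Alternatives were other count models, filters, cell limits, clustering, the replicate block, and leaving out each kidney. Cxcl11 was not analysed here.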

Additional observations from a re-analysis of the deposited data

Results flagged for a closer look

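Cxcl2 moved in opposite directions between rejecting and tolerized kidneys in different classes. Its log2 change was 3.60 in endothelium-like cells, from 1 and 0 UMIs to 32 and 6 UMIs, but -1.71 for proximal tubule-like and -2.64 for collecting duct-like cells. Levels were low in these classes too. Proximal tubule-like cells had 1.24 to 2.00 CPM in rejecting and 0.277 to 0.620 CPM in tolerized kidneys. Collecting duct-like cells had 9.95 to 10.5 CPM and 1.42 to 1.72 CPM. The kidneys of the groups did not overlap in any of the 3 classes, as was so for 16.3% of all genes that were higher in endothelium-like and for 35.9% and 20.3% that were lower in proximal tubule-like and collecting duct-like cells. None of the changes passed the FDR, and the difference between classes was not tested. With called doublets kept, the endothelium-like change was -0.39, and the directions were no longer opposite.

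Barcodes called doublets, which were left out of the comparisons other than the alternative that keeps them, carried chemokine UMIs above the naive level. Among called doublets of the transplanted kidneys the lowest level was 131 CPM for Cxcl9, 207 CPM for Cxcl10, 167 CPM for Cxcl16, and 35.2 CPM for Cxcl2. In called doublets of the naive kidneys Cxcl9 was at 0 and 0.49 CPM, Cxcl10 at 1.59 and 9.88 CPM, Cxcl16 at 35.9 and 36.6 CPM, and Cxcl2 at 0.64 and 26.2 CPM.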

How the results depend on the processing

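With 2 kidneys per group, a call rests on few degrees of freedom, and leaving out a kidney leaves a lone sample that is assumed to vary like the others. Naive macrophage-like cells were few. For tolerized over rejecting kidneys DESeq2 called 205 of 12639 genes in proximal tubule-like and 30 of 9755 in loop of Henle-like cells. It called 63 of 10738 in distal convoluted tubule-like and 15 of 10431 in collecting duct-like cells. Except for crossed replicate numbers, the other alternatives are listed below without counts over all genes. Between tolerized and rejecting kidneys the tubular count of 0 members became 3 with DESeq2, 10 without the filter on low counts, and 1 with at most 20% mitochondrial UMIs. With the replicate block it became 2, both Cxcl9, and leaving out each kidney gave 0 to 5, with 5 without rejecting kidney 2 and 1 without rejecting kidney 1. In the myeloid classes the count of 0 became 3 without the filter and 0 to 2 on leaving out each kidney, of which 2 came without rejecting kidney 2 and 1 without each of the other transplanted kidneys. Crossed replicate numbers as a block, chosen after seeing the data, gave 1 member, and 81, 3, and 23 genes in the 3 myeloid classes. A Leiden resolution of 0.8 left no macrophage/monocyte-like class, so the myeloid count was not run there. In endothelium-like cells 0 became 2 without the filter, and over all kept cells 2 with DESeq2, 2 without the filter, and 0 to 1 on leaving out each kidney (1 without tolerized kidney 1). The difference between macrophage-like and proximal tubule-like cells went from 0 to 2 without the filter and to 0 to 2 on leaving out each kidney (2 without rejecting kidney 2). Against naive kidneys, the 2 endothelium-like calls of either transplanted group became 1 with DESeq2 and 4 without the filter. The 11 tubular calls in tolerized kidneys became 6 with at most 20% mitochondrial UMIs and 7 to 13 on leaving out each kidney, with 7 without naive kidney 1 and 7 without tolerized kidney 2. The replicate block moved no other count of members past 1.5 times. The cause of these moves was not tested. The tubular share of Cxcl13 UMIs differed by 5.43 percentage points with at most 20% mitochondrial UMIs, against 11.5 points.

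Some log2 changes turned sign, none of them called. With at most 20% mitochondrial UMIs these were Cxcl1 in rejecting over naive (-0.14) and Cxcl2 in tolerized over naive kidneys (-0.037) over all kept cells, and in tolerized over rejecting kidneys Cxcl10 in distal convoluted tubule-like (0.24), Cxcl12 in loop of Henle-like (-0.011), and Cxcl12 in proximal tubule-like cells (0.16). Endothelium-like Cxcl10 was 0.018 without the filter and 0.011 with the replicate block. With doublets kept, endothelium-like Cxcl2 was 0.045 in rejecting over naive and -0.39 in tolerized over rejecting kidneys, and macrophage/monocyte-like Cxcl2 was -0.88. Monocyte-like Cxcl2 was -0.21 at a resolution of 0.8.

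On leaving out each kidney, Cxcl1 ranged from -0.094 to 0.70 (rejecting over naive) and -0.44 to 0.10 (tolerized over naive) over all kept cells, from -0.20 to 1.73 in collecting duct-like cells (tolerized over naive), and in endothelium-like cells from -2.01 to 1.37 (rejecting over naive) and -1.51 to 1.86 (tolerized over rejecting). Between tolerized and rejecting kidneys, Cxcl10 ranged from -0.23 to 0.17 in endothelium-like, -1.71 to 0.016 in loop of Henle-like, and -1.99 to 0.24 in macrophage/monocyte-like cells, and its difference between macrophage-like and proximal tubule-like cells from -0.30 to 0.40. Endothelium-like Cxcl12 ranged from -1.92 to 0.33. Cxcl16 ranged from -0.87 to 0.79 in endothelium-like, -1.33 to 0.61 in macrophage/monocyte-like, and -0.64 to 0.063 in monocyte-like cells. Cxcl2 ranged from -0.71 to 0.31 in macrophage-like and -0.83 to 2.59 in macrophage/monocyte-like cells. Against naive kidneys Cxcl2 ranged from -0.67 to 3.70 over all kept cells (tolerized), -6.97 to 2.96 (rejecting) and -1.79 to 6.57 (tolerized) in endothelium-like cells, and -1.18 to 1.32 in proximal tubule-like cells (tolerized).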
